A study of Mus musculus with 36 samples.

Results

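The Ets factors are transcription factors that share a DNA-binding domain, and several of them act where the ERK branch of the MAP kinase cascade reaches the genome. The 10 genes described here were listed by name for that role: Etv1, Etv4 and Etv5 of the PEA3 group, the repressors Etv6 and Erf, the founding members Ets1 and Ets2, and the ternary complex factors Elk1, Elk3 and Elk4. They were found in the deposited array table by gene symbol, and each gene was read from its brightest probe set by mean over the 36 arrays. Of the 10 genes, 9 had a probe set annotated to that gene alone, out of 18194 genes with such a probe set. All 9 lay above the intensity filter and so belonged to the 12626 genes tested. The 3 probe sets annotated to Etv1 are also annotated to the pseudogene Gm5454, so they name neither gene alone and Etv1 was not tested.

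Active ERK phosphorylates Ets1, Ets2 and the Elk factors and raises their activity, whereas it drives the repressor Erf out of the nucleus. The PEA3 genes stand on the other side of the pathway: their RNA is held down by the repressor Capicua, which ERK signalling inactivates, so Etv4 and Etv5 RNA is used in mammalian cells as a readout of the pathway. RNA levels therefore bear directly on the PEA3 genes and say little of the activity of factors that are regulated by phosphorylation.

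The arrays came from left ventricles of mice on a C57 black background. In each of 3 double transgenic lines, the cardiac alpha myosin heavy chain promoter drives a floxed transgene in heart muscle cells, and the same promoter drives Mer-Cre-Mer, a recombinase that tamoxifen turns on. HRas-v12 is an always active Ras, which feeds the ERK cascade among others, MKK3bE an active kinase upstream of p38, and MKK7D an active kinase upstream of JNK. All mice, non-transgenic littermate controls included, received tamoxifen at 20 mg/kg on 3 days at 12 weeks of age. Early hearts were taken 4 to 7 days after the first injection and late hearts after 2 to 4 weeks. The early HRas-v12 group held 3 male and 2 female arrays and the late one 3 male and 3 female arrays. For MKK3bE there were 2 early arrays, both female, and 3 male and 2 female late ones. These lines were set against 3 female and 3 male control arrays with no time in the labels, which all their comparisons share. There were 3 female MKK7D arrays at each time, set against 3 female controls of its own at each time. No label says whether replicates of a group come from different mice, and the p-values cover the spread between arrays alone, which may be technical.

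Some arrays went against their labels, and this touches most of the results. The Mer parts of Mer-Cre-Mer derive from the estrogen receptor gene Esr1, whose probe set could therefore read the recombinase RNA too. It lay at 12437 to 155949 in 21 of the 24 transgenic arrays and at 294 to 7943 in 10 of the 12 control arrays. Among the HRas-v12 arrays, the one labelled female early replicate 3 and those labelled male late replicates 1 and 3 were at 688 to 2915, in the range of the controls. The arrays labelled MKK7D control late replicates 8 and 9 were at 91291 to 106402, in the range of the transgenic arrays. The array labelled MKK7D control early replicate 1 had 6018 for the Y-linked gene Eif2s3y, against 5.3 to 187 in the 23 other arrays labelled female. The calls against controls and the counts over gene lists are therefore also given without these 6 arrays, called the arrays in doubt, which leaves 1 female array in the early and 1 male array in the late HRas-v12 group and 1 late MKK7D control, each assumed to vary like the other groups. Leaving them out also moved the share of all genes called, to 42.3% in early and 1.24% in late HRas-v12 hearts, 16.4% in early and 20.4% in late MKK3bE hearts, and 0.974% in early and 3.39% in late MKK7D hearts. All 10 ventricular muscle markers were above the filter, with a lowest signal of 34012 on any array. The summed signal of 4 atrial muscle markers ran from 8077 to 286948 over the 36 arrays, and from 8077 to 234918 in the 3 control females alone. Of these markers, Sln ran from 29.5 to 28188 and Myl7 from 271 to 49696. Whether atrial tissue has a part in the members' values was not tested.

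The start regions of the listed genes were searched for letters that Capicua is known to bind, and those of Etv5 and Etv6 held them. Whether Capicua has a part in the RNA levels of these genes was not tested. The 8 octamers TGAATGAA, TGAATGGA, TGAATGAG, TGAATGGG, TCAATGAA, TCAATGGA, TCAATGAG and TCAATGGG were searched on both strands in windows of 300 bases, from 250 bases before to 50 after each start site (RefSeq, GRCm38.p6). At least 1 of them was present in 7.02% of the 32851 windows of all genes and at least 3 in 0.0791%. The second of the 2 Etv5 windows, at chr16:22438319-22438618 on the minus strand, held TGAATGGG 3 times, with first bases 242, 198 and 131 bases before the start site and the last on the opposite strand. The Etv6 window, at chr6:134035450-134035749 on the plus strand, held TCAATGAG once. Both windows are printed 5′ to 3′ with the octamers, or their reverse complement, in capitals.
Etv5: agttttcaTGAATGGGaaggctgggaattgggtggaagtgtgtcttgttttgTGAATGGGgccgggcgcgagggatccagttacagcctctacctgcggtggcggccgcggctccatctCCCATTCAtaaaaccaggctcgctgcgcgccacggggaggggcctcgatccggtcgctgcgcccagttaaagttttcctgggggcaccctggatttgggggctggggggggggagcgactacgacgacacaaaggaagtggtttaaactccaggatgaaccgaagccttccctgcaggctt
Etv6: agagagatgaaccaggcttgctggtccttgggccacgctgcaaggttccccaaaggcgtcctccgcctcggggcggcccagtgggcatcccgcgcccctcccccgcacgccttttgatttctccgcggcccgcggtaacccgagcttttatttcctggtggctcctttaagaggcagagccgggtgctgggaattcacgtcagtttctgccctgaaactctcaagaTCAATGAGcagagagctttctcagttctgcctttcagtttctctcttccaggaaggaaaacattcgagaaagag

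The first Etv5 window, both Etv1 windows and the windows of Ets2, Elk1, Elk3, Elk4 and Erf held none of these octamers. Among the feedback and target genes of the ERK pathway, the window of Dusp6 held 2, and those of Dusp5, Spry2, Spred3 and Fos held 1 each. The Ets-binding 8-mer CCGGAAGT, present in 3.89% of all windows, was found in 1 window of the listed genes, that of Elk4. A match is a description of these letters and not a sign of binding, and windows of Etv4 and Ets1 were not analysed here.

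Etv5 was the listed gene that changed in HRas-v12 hearts at both times. Etv5 (chromosome 16, 22381313 to 22439570, GRCm38.p6) encodes a PEA3 activator of transcription. Its signal was 6346 and 1674 in the early female HRas-v12 arrays and 5280.1, 5795 and 6898 in the early male ones, against 2281, 2769 and 1385 in control females and 1511, 2199 and 2421 in control males. Of the 5 early arrays, 4 lay above every control, and the fifth, the array in doubt labelled female early replicate 3, lay among the controls. Etv5 was higher by 1.11 on the log2 scale (SE 0.34, 2.15-fold, adjusted p = 0.0125). Without the array labelled female early replicate 1 the change was 0.63 with an adjusted p of 0.236, and without the arrays in doubt it was 1.58 with an adjusted p of 7.82e-06. Etv5 was the 1 member of 9 called in early HRas-v12 hearts, where 33.8% of all genes tested were called, 15.1% higher and 18.7% lower. Without the arrays in doubt 3 members were called, Etv4, Etv5 and Erf, with 42.3% of all genes called.

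In late HRas-v12 hearts the Etv5 signal was 5579, 8389 and 7830.4 in females and 1925, 8219 and 1686 in males. All 3 females and the male array labelled replicate 3 lay above every control, and the male arrays labelled replicates 1 and 4 lay within the control range. The change was 1.18 (SE 0.32, 2.26-fold, adjusted p = 0.0257), with 4.86% of all genes called higher and 4.66% lower. Esr1 and Etv5 did not sort the late males in the same way: replicate 4 had the highest Esr1 signal of the series, 155949, with Etv5 at 1686, and replicate 3 had Esr1 at 1327 with Etv5 at 8219. The male change minus the female change was -1.21 (SE 0.63, adjusted p = 0.666). It was -2.02 without the arrays in doubt (SE 0.46, adjusted p = 0.0187, with 3.77% of all genes called), a value that rests on 1 late male array, that of replicate 4. Without those arrays the late change of Etv5 was 0.77 with an adjusted p of 0.101, and without the male array labelled replicate 3 alone it was 0.81 with an adjusted p of 0.103. The call was also lost without the female labelled replicate 3 (1.12, adjusted p = 0.0727), control male replicate 1 (1.08, adjusted p = 0.0599) or control female replicate 2 (1.03, adjusted p = 0.0560). With only the groups compared in the fit, the adjusted p of Etv5 in late hearts was 0.127.

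In MKK3bE hearts Etv5 also lay above the controls on most arrays, although the test was not passed. The early female arrays had 2801 and 4641, both above all 3 control females, and the change was 0.80 (SE 0.50, adjusted p = 0.351). The late arrays had 5520 and 3912 in females and 4586, 4498 and 2333 in males, and 4 of the 5 lay above every control. The late change was 1.01 (SE 0.34, 2.01-fold, adjusted p = 0.0527), and without the arrays in doubt, none of which belongs to this comparison, it was the same in size with an adjusted p of 0.000883, since the spread is estimated over all arrays. It was also called with only the groups compared in the fit (adjusted p = 0.00881) and without the male labelled replicate 4 (1.16, adjusted p = 0.0376). Etv5 did not differ by the test between HRas-v12 and MKK3bE hearts, at -0.14 early (95% interval -1.27 to 0.98, females) and 0.17 late (-0.52 to 0.86).

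In MKK7D hearts Etv5 signal was 1996, 1986 and 1478 early, against 1831, 2020.3 and 1703 in their controls, so the groups overlapped (-0.03, SE 0.45, adjusted p = 0.988). Late, it was 4075, 4211 and 4441 in MKK7D hearts, against 4054, 5321 and 2100.0 in the controls labelled replicates 8, 9 and 10 (0.25, SE 0.45, adjusted p = 0.999). The 2 controls with high Esr1 had Etv5 at the level of the transgenic arrays, and the third control lay below all of them. Without the arrays in doubt the late change was 1.00 with an adjusted p of 0.156 and a single control. The late MKK7D arrays all lay above the early ones (1.22, SE 0.45, adjusted p = 0.999), a difference that was called when only the groups compared entered the fit.

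**Figure D1:**
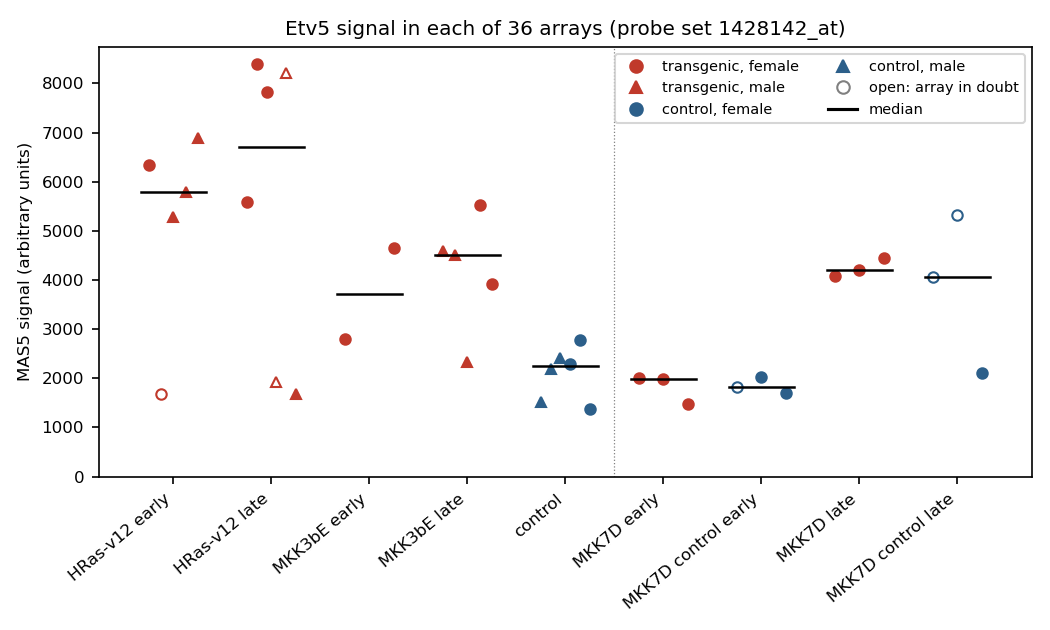
Etv5 signal (vertical axis, MAS5 units) in each of the 36 arrays by line and time, with transgenic arrays in red, controls in blue, circles for females, triangles for males, open symbols for the 6 arrays in doubt and a bar at the median. The early HRas-v12 arrays lie at 5280.1 to 6898 apart from 1 open symbol at 1674, and the 6 shared controls lie at 1385 to 2769.

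Ordered by mean, Etv5 signal was lowest in early MKK7D hearts (1819.8 ± 296) and their controls (1851 ± 159), then in control males (2044 ± 475) and control females (2145 ± 702; SD, n = 3 each). Then came MKK3bE early females (3721 ± 1301, n = 2), MKK3bE late males (3806 ± 1276, n = 3), the late MKK7D controls (3825 ± 1623, n = 3), HRas-v12 late males (3943 ± 3705, n = 3) and HRas-v12 early females (4009.8 ± 3303, n = 2). The highest means were those of late MKK7D hearts (4242 ± 185, n = 3), MKK3bE late females (4716 ± 1137, n = 2), HRas-v12 early males (5991 ± 826, n = 3) and HRas-v12 late females (7266 ± 1487, n = 3). Neighbours in this order differed by less than the larger of their SDs, except control females beside MKK3bE early females, and MKK3bE late females beside HRas-v12 early males.

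The further Etv5 probe sets moved with the brightest. With every probe set tested on its own, an alternative chosen after the signals were seen, all 3 were called higher in early HRas-v12 hearts, at 1.11, 1.06 and 1.13 (16.4% of all probe sets were called). All 3 were called late, at 1.18, 0.85 and 1.08 (4.33% of probe sets). In late MKK3bE hearts they were higher by 1.01, 0.92 and 0.81, and 1 of the 3 was called, with an adjusted p of 0.0496 (3.26% of probe sets). Once the arrays in doubt were left out, all 3 remained called in early HRas-v12 hearts, at 1.58, 1.44 and 1.54, and none was called late, with adjusted p-values of 0.15, 0.151 and 0.164. The share of all probe sets called without these arrays is not given, and the shares above come from all arrays. Among genes it was 42.3% in early HRas-v12 and 20.4% in late MKK3bE hearts. All 3 Etv5 probe sets were then called in late MKK3bE hearts, with adjusted p-values of 0.00188, 7.08e-05 and 0.00431. The second was also called in early MKK3bE hearts (0.81, adjusted p = 0.0116) and, against a single control, in late MKK7D hearts (1.14, adjusted p = 0.0233).

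Etv4, the PEA3 activator that is a close relative of Etv5 (chromosome 11, 101769747 to 101785310), gave different answers from its 2 probe sets. The brightest had 1246 and 377 in early HRas-v12 females and 494, 555 and 923 in early males, against 582, 389 and 505 in control females and 351, 410.2 and 280 in control males. The groups overlapped and the change was 0.65 (SE 0.33, adjusted p = 0.133), or 1.07 with an adjusted p of 0.00769 without the arrays in doubt and 0.0197 without the array labelled female early replicate 3 alone. In late HRas-v12 hearts 4 of 6 arrays lay above every control and 1, the male array labelled replicate 3 at 222, below all of them (0.54, SE 0.31, adjusted p = 0.255). In the other 4 comparisons against controls this probe set changed by -0.53 to 0.32, with adjusted p-values of 0.632 to 0.999.

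The second probe set of Etv4 separated the arrays far more widely. It had 2465 and 78.9 in early HRas-v12 females and 1074, 487 and 1521 in early males, against 61.0 to 118 in the 6 control arrays. All early arrays but the one in doubt lay above every control, and the change was 2.57 (SE 0.63, 5.92-fold, adjusted p = 0.00272). This fit took the second brightest probe set of each listed gene and the brightest of every other gene. The second Etv4 probe set lay under the intensity filter, with a log2 mean of 8.07. Late HRas-v12 arrays had 499.8, 1160.2 and 679 in females and 63.6, 702 and 99.7 in males (1.74, SE 0.59, adjusted p = 0.0589). Here too the late males labelled replicates 1 and 4 lay at the level of the controls and replicate 3 did not.

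In early MKK3bE females the second Etv4 probe set had 309.6 and 1337, against 61.0 to 118 in the 3 control females, and the change was 2.57 with an adjusted p of 0.0959. In late MKK3bE hearts it was at 93.6 to 209 and the change was 0.44 (adjusted p = 0.704). Late MKK7D hearts had 388, 613 and 399, against 525 and 639 in the controls labelled replicates 8 and 9 and 58.6 in replicate 10. Early MKK7D hearts had 109 to 117, against 44.2 to 192 in their controls. With every probe set tested on its own and the arrays in doubt left out, this probe set was called in early hearts of 2 lines. The share of all probe sets called in that fit is not given. The change was 3.69 in HRas-v12 (adjusted p = 8.39e-07) and 2.57 in MKK3bE hearts (adjusted p = 0.00528). It was then 1.40 in late HRas-v12 hearts, with 1 male array left, and 2.43 in late MKK7D hearts, against a single control. Across the 36 arrays the log2 signals of this probe set and of the brightest Etv5 probe set had a Pearson correlation of 0.834 and a Spearman correlation of 0.826. These points share lines, times and arrays in doubt, so the figures are a description only.

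**Figure D2:**
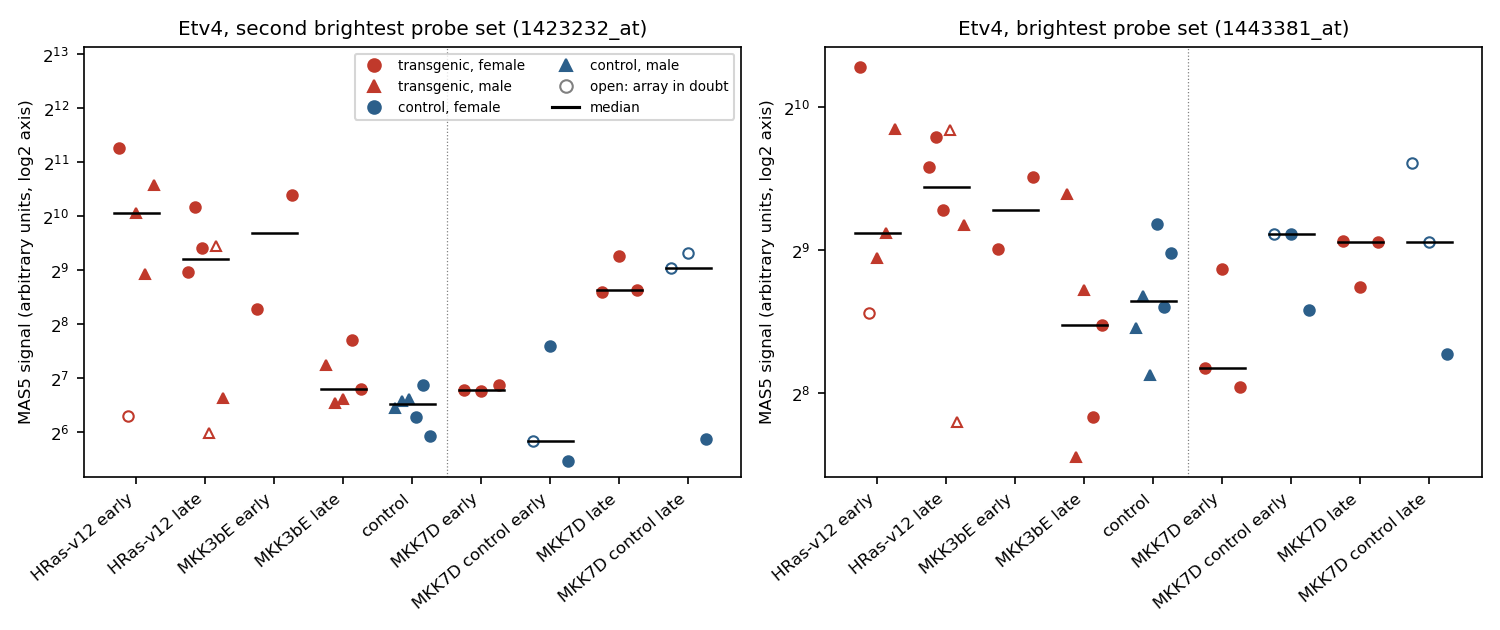
Etv4 signal (vertical axis, MAS5 units on a log2 axis) in each of the 36 arrays from the second brightest probe set (left) and the brightest (right), with colours and symbols as for Etv5. On the left the early HRas-v12 arrays lie at 487 to 2465 apart from 1 open symbol at 78.9, above the 6 shared controls at 61.0 to 118, whereas on the right these groups overlap.

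Of the repressors, Etv6 (chromosome 6, 134035700 to 134270158) was higher in late HRas-v12 hearts, where 9.52% of all genes were called in either direction. It had 2657, 3030.4 and 2152 in late females and 2589, 2485 and 2006 in late males, against 2182, 1389 and 1452 in control females and 1889, 1799 and 2565 in control males. The groups overlapped, with 3 of 6 late arrays above every control. The change was 0.42 (SE 0.12, 1.34-fold, adjusted p = 0.0277), and 0.31 with an adjusted p of 0.341 without the arrays in doubt. The adjusted p was 0.168 with only the groups compared, and 0.0593 to 0.0915 without control male replicate 1 or 2, control female replicate 1 or 2, or the late female or male labelled replicate 3, each left out alone. Early HRas-v12 hearts, at 1689 and 1716 in females and 1935 to 2271 in males, did not differ from controls by the test (0.03, SE 0.12, adjusted p = 0.858). Late minus early was 0.38 (SE 0.12, adjusted p = 0.0413), the 1 member called between the times of HRas-v12, with 11.6% of all genes called. Without the arrays in doubt, and so with 1 late male, Etv6 was not called there (0.28, adjusted p = 0.26) and Etv5 was, at -0.81 (adjusted p = 0.0269), with 26.1% of all genes called. The call of Etv6 was lost when any 1 of 7 of the 11 arrays was left out: both early females, early males 1 and 2, late females 2 and 3, and late male 1.

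Etv6 was not called in the other lines. It had 2172 and 2843 in early MKK3bE females, and 1 of the 2 lay above the control females (0.59, SE 0.18, adjusted p = 0.0509). Without the arrays in doubt the adjusted p was 0.0387, and without control female replicate 4 it was 0.0158 with a change of 0.79. Late MKK3bE males had 2498 to 2593 and late females 1561 to 1882 (0.19, SE 0.12, adjusted p = 0.353). Early MKK7D hearts had 2604, 2833 and 2714, all above their controls at 1868, 2182 and 1818 (0.47, SE 0.16, adjusted p = 0.25). Late MKK7D hearts had 2723, 2708 and 3089.8, all above their controls at 2526, 2219.8 and 2552 (0.22, SE 0.16, adjusted p = 0.999). How many of all genes separate in this way at either time is not given here. Both of these control groups held arrays in doubt. Without the arrays in doubt the MKK7D change of Etv6 was 0.44 early and 0.15 late, the late value against a single control. No member was called in either MKK7D comparison, where 0.135% of genes were called early and 0% late by limma, with 643 of the 12626 genes at an unadjusted p under 0.05 late and none of the 9 members. The second Etv6 probe set changed in the same direction in late HRas-v12 hearts (0.43, adjusted p = 0.434).

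Erf (chromosome 7, 25242560 to 25251104), the repressor that ERK exports from the nucleus, had 3711 and 2986 in early HRas-v12 females and 3218, 3802 and 3294 in early males. Controls had 3416, 3226 and 2497 in females and 2437, 2533 and 2619.7 in males. All 3 early males lay above all control males, the females overlapped, and the change was 0.29 (SE 0.12, 1.22-fold, adjusted p = 0.0661). It was called without the arrays in doubt (0.36, adjusted p = 0.038), without the array labelled female early replicate 3 alone (adjusted p = 0.0374) and without control female replicate 4 (0.33, adjusted p = 0.0461). Late HRas-v12 and late MKK3bE hearts gave 0.10 and 0.20, with adjusted p-values of 0.611 and 0.311. Early MKK7D hearts had 2888, 2855 and 2682, all above their controls at 2316, 2377 and 1759 (0.39, SE 0.16, adjusted p = 0.354). The share of all genes that separate in this way is not given. The dimmer second Erf probe set changed by -0.68 in early HRas-v12 hearts, with an adjusted p of 0.373.

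Elk1 (X chromosome, 20933395 to 20950608), the ternary complex factor that activates serum response genes once ERK phosphorylates it, was called in late HRas-v12 hearts. It had 1228, 1498 and 1073 in late females and 1143, 1147 and 1033 in late males, against 584, 297 and 662 in control females and 1012, 1052 and 1057 in control males. The 3 late females lay well above the control females, whereas the late males overlapped the control males. The change was 0.70 (SE 0.19, 1.62-fold, adjusted p = 0.0277), and 0.65 with an adjusted p of 0.227 without the arrays in doubt. The adjusted p was 0.123 with only the groups compared, and 0.0549 to 0.0852 without control male replicate 1, control female replicate 1, or the late female or male labelled replicate 3, each left out alone. The control males were all above the control females (1.04, SE 0.28, unadjusted p = 0.000743, adjusted p = 0.148), and no gene was called in that comparison, with 1148 genes at an unadjusted p under 0.05. The second Elk1 probe set did not share the change, at -0.45 in late HRas-v12 hearts (adjusted p = 0.602).

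In early HRas-v12 hearts Elk1 had 756 and 850.0 in females and 638, 752 and 1008 in males, and the change was 0.14 (SE 0.21, adjusted p = 0.627). In MKK3bE hearts it was 0.81 early (SE 0.31, adjusted p = 0.112), with 814 and 946 on the 2 arrays, both above all control females, and 0.06 late (adjusted p = 0.886). In MKK7D hearts it was -0.63 early (SE 0.28, adjusted p = 0.403), with 394 to 710.1, against 623 to 1074 in their controls, and 0.05 late (adjusted p = 0.999).

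**Figure D3:**
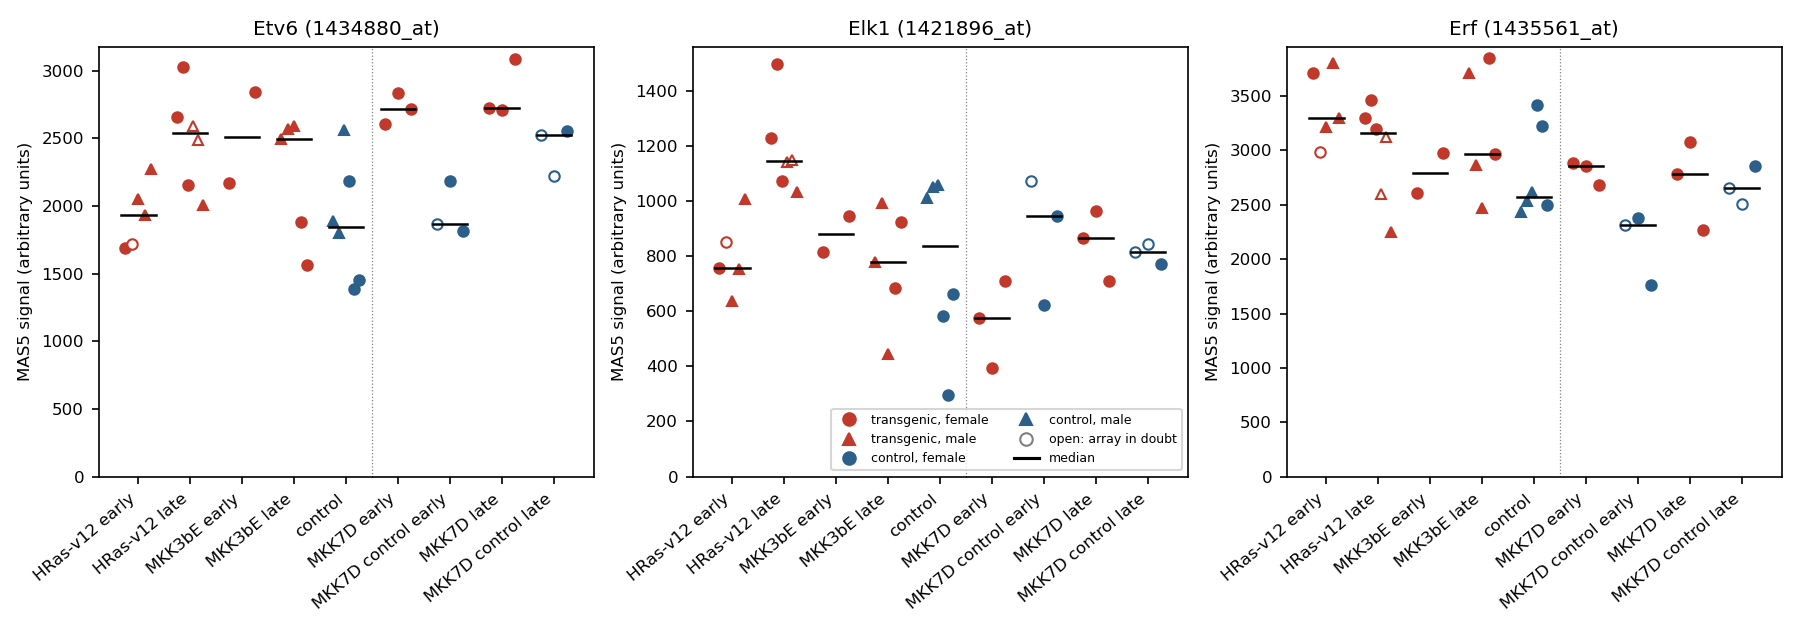
Signals of Etv6, Elk1 and Erf (vertical axes, MAS5 units) in each of the 36 arrays, with colours and symbols as for Etv5. Late HRas-v12 arrays lie at 2006 to 3030.4 for Etv6, against 1389 to 2565 in the 6 shared controls, and for Elk1 the control females lie at 297 to 662, below the control males at 1012 to 1057.

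The other ternary complex factors, read from their brightest probe sets, were not called in any of the 17 comparisons made. Beside those named so far, these were the differences between times in MKK3bE (0.00792% of all genes called) and MKK7D hearts (0.0158%), between HRas-v12 and MKK3bE hearts early (1.81%) and late (3.95%), and between the early HRas-v12 and MKK7D changes (0%). They also took in the sex differences of the change in early HRas-v12 (1.1%), late HRas-v12 (0%) and late MKK3bE hearts (0.00792%), and early MKK7D controls against control females (1.47%). By limma, 988 genes had an unadjusted p under 0.05 for the sex difference in late HRas-v12 hearts. Elk3 (chromosome 10, 93247415 to 93311159), which represses its targets until ERK phosphorylates it, ran from 4202 to 7481 over the 36 arrays. Its changes against controls were -0.14 in early HRas-v12, 0.11 in late HRas-v12, 0.21 in early MKK3bE, 0.01 in late MKK3bE, -0.13 in early MKK7D and -0.01 in late MKK7D hearts. With every probe set tested on its own and the arrays in doubt left out, 1 of the 4 Elk3 probe sets, the dimmest, was called lower in early HRas-v12 hearts. The share of all probe sets called in that fit is not given. The dimmest was at -0.70 (adjusted p = 0.0265), and the others were at -0.26 to -0.11 (adjusted p = 0.291 to 0.706). In late HRas-v12 hearts the dimmest was at -0.73 and the others were at -0.03 to 0.04. Elk4 (chromosome 1, 132007577 to 132026448) ran from 7021 to 15002. Of the 6 late HRas-v12 arrays 3 lay above every control (0.26, SE 0.12, unadjusted p = 0.0379, adjusted p = 0.15), and in the other 5 comparisons against controls it changed by -0.15 to 0.10. Late HRas-v12 minus late MKK3bE was 0.34 for Elk4 (SE 0.13, adjusted p = 0.147) and 0.63 for Elk1 (SE 0.21, adjusted p = 0.0826), and all 6 late HRas-v12 arrays lay above all late MKK3bE arrays for Elk1.

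Ets1 and Ets2, activators whose proteins ERK phosphorylates beside their Pointed domain, were not called in any of the 17 comparisons either. Ets1 (chromosome 9, 32636241 to 32757820) had 16247 and 16135 in early HRas-v12 females and 11082, 8835 and 17004 in early males, against 10850.0 to 20126 in control females and 15768 to 25661 in control males. The females overlapped, 2 of the 3 males lay below all control males, and the change was -0.28 (SE 0.20, 95% interval -0.68 to 0.12, adjusted p = 0.289). Late HRas-v12 hearts lay at 17007 to 20052 (0.13, adjusted p = 0.668), above every early array of their sex (late minus early 0.41, SE 0.20, adjusted p = 0.178). Ets1 is also an endothelial gene in the heart. Of the 15 endothelial markers, 12 were lower in early HRas-v12 hearts and 3 in late ones, with 18.7% and 4.66% of all genes called lower. The part of endothelial cells in the Ets1 values was not tested.

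Ets2 (chromosome 16, 95702407 to 95721049) lay on opposite sides of the controls of the same sex in the 2 sexes of early HRas-v12 hearts. It had 18048 and 19034 in early females, above the control females at 14199.8 to 16958, and 11283, 15739.8 and 16215 in early males, below the control males at 20429 to 21778. The groups did not overlap in either sex, in opposite directions, although 1 of the 2 early females, at 19034, is the array in doubt. The control males themselves all lay above the control females, so the 2 directions start from different levels. How many of all genes separate in this way is not given here. The change over both sexes was -0.17 (SE 0.11, adjusted p = 0.246). The male change minus the female change was -0.78 (SE 0.22, unadjusted p = 0.00142, adjusted p = 0.067), in a comparison where 1.1% of all genes were called. Ets2 changed by -0.19 to -0.00 in the other 5 comparisons against controls.

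**Figure D4:**
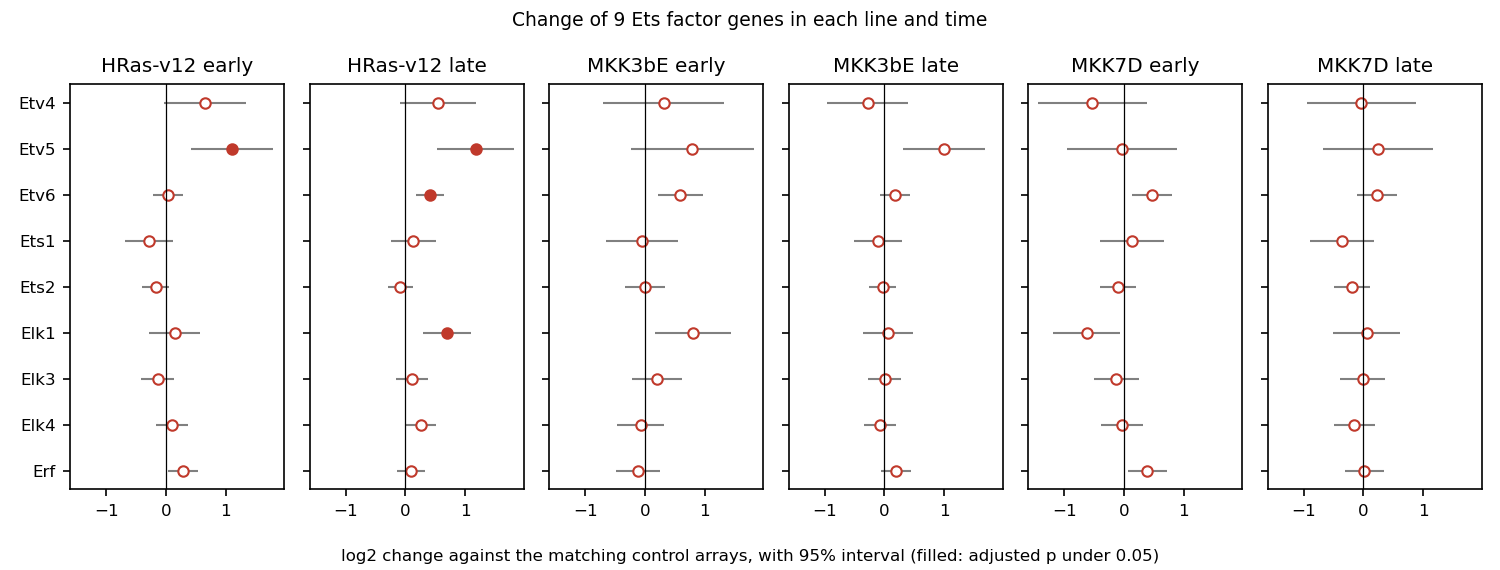
Change on the log2(signal + 32) scale (horizontal axes) with its 95% interval for the 9 genes tested, in each line and time against its control arrays, with filled points for an adjusted p under 0.05. Etv5 is called at 1.11 and 1.18 in early and late HRas-v12 hearts, Etv6 at 0.42 and Elk1 at 0.70 in late ones, and no member is called in MKK3bE or MKK7D hearts.

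Counted over the members, 1 of 9 was called higher and 0 lower in early HRas-v12 hearts, 3 and 0 in late ones, and 0 in each of the other 4 comparisons against controls, with 6.26% of all genes called in early and 10.4% in late MKK3bE hearts. Once the arrays in doubt were left out, 3 were called in early HRas-v12 hearts, with 42.3% of all genes called. In MKK3bE hearts 1 was then called early (Etv6) and 1 late (Etv5), with 16.4% and 20.4% of all genes called. The 3 late HRas-v12 calls were lost, with 1 late male array left. None was called in early MKK7D hearts, with 0.974% of all genes called. The median change of the 9 members was 0.10 in early and 0.26 in late HRas-v12 hearts, against -0.04 and 0.02 for all genes. It was 0.21 in early and 0.01 in late MKK3bE hearts and -0.03 and -0.01 in MKK7D hearts. The shared probe set of Etv1 and Gm5454 had 898 to 1604 in early HRas-v12 and 639 to 1809 in late HRas-v12 hearts, against 772 to 1993 in the shared controls, and is given as a joint value with no test.

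The other genes of the pathway were taken from lists written with the design. Of 19 feedback and target genes of ERK signalling 17 were tested. In early HRas-v12 hearts 12 were higher and 0 lower, with a median change of 1.81, where 15.1% of all genes were called higher. Spred1, an inhibitor of the step between Ras and its kinases, was higher by 2.18 (SE 0.37, 4.53-fold, adjusted p = 0.00015), and Ier3, an early response gene, by 1.55 (adjusted p = 0.000194). The early growth response factors Egr3 and Egr1 were higher by 3.11 and 2.44 (adjusted p = 0.000493 and 0.0005). Spred1 had 19268 and 3058 in early females and 15605 to 22762 in early males, against 2353 to 3217 in the 6 controls, so the array that was low for Etv5 and Etv4 was also low for Spred1.

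Late HRas-v12 hearts had 7 of the 17 higher and 0 lower, with a median of 1.18, where 4.86% of all genes were called higher. The 3 late males again differed, with Spred1 at 3092, 16595 and 2524 in those labelled replicates 1, 3 and 4. Late females had 7414, 16730 and 17830.2. In MKK3bE hearts 1 of 17 was higher early and 4 late, with 0 lower at both times, against 6.26% and 10.4% of all genes called. In MKK7D hearts none was called at either time. With the arrays in doubt left out, 15 were higher in early HRas-v12 hearts, where 42.3% of all genes were called, and 3 in late ones, where 1.24% were. In MKK3bE hearts 8 were then higher early and 9 late, against 16.4% and 20.4% of all genes called, and in MKK7D hearts 1 early and 2 late, against 0.974% and 3.39%.

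Of 16 other Ets family genes 11 were tested. In early HRas-v12 hearts 1 was higher and 3 were lower, in a comparison where 33.8% of all genes tested were called. Erg changed by -0.85 (SE 0.18, adjusted p = 0.000918) and Fli1 changed by -0.36 (SE 0.12, adjusted p = 0.018), both factors of endothelial cells. Gabpa, a regulator of mitochondrial genes, changed by -0.56 (SE 0.12, adjusted p = 0.00102). Spi1, the macrophage factor PU.1, was higher by 0.83 (SE 0.29, adjusted p = 0.0303). In late HRas-v12 hearts Erg (-0.56, adjusted p = 0.0383) and Fli1 (-0.47, adjusted p = 0.0165) were the 2 called, where 9.52% of all genes were. None was called in MKK3bE or MKK7D hearts. With the arrays in doubt left out, these 2 late calls were lost, Elf2 joined the genes called lower in early HRas-v12 hearts (-0.36, adjusted p = 0.0142), and Erg was called in late MKK3bE hearts (-0.49, adjusted p = 0.0099).

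Markers of heart muscle and of other cell types changed as well. Of all genes tested, 15.1% were called higher and 18.7% lower in early HRas-v12 hearts, and 4.86% and 4.66% in late ones. In MKK3bE hearts 6.26% of all genes were called either way early and 10.4% late. Without the arrays in doubt these shares were 42.3% in early HRas-v12 hearts, and 16.4% and 20.4% in early and late MKK3bE hearts. All 10 ventricular muscle markers were lower in early HRas-v12 hearts, with a median change of -0.59, and 8 of 10 in late ones, with a median of -0.38, and none was called in MKK3bE or MKK7D hearts. The ventricular light chain Myl2 changed by -0.72 (adjusted p = 0.000118) and the myosin heavy chain Myh6, whose promoter drives the transgenes, by -0.55 (adjusted p = 0.000221) in early hearts. The summed ventricular muscle signal was 999174 to 1463900 in early and 1114600 to 1567700 in late HRas-v12 hearts, against 1551610 to 2097730 in the shared controls. Once the arrays in doubt were left out, all 10 were lower early and none was called late, and 4 and 3 were lower in early and late MKK3bE hearts. Of 9 smooth muscle and pericyte markers, Cspg4, Pdgfrb and Tagln were higher and Abcc9, Kcnj8 and Rgs5 lower in early HRas-v12 hearts, and Cspg4 was higher and Rgs5 lower in late ones. In early HRas-v12 hearts 12 of 15 endothelial markers were lower and 0 higher, 9 of 15 macrophage markers were higher and 0 lower, and 6 of 12 fibroblast markers were higher and 0 lower. The summed macrophage signal ran from 66057 to 259453 there, against 70170 to 103313 in the shared controls, and the summed endothelial signal from 61333 to 124303, against 98695 to 144060. The summed fibroblast signal was 211074 to 637393, against 214415 to 285617. The late HRas-v12 counts were 0 higher and 3 lower for endothelial, 2 higher and 1 lower for macrophage, and 4 higher and 0 lower for fibroblast markers. In MKK3bE hearts 5 fibroblast markers were higher early and 6 late. With the arrays in doubt left out, 13 endothelial markers were lower and 13 macrophage and 8 fibroblast markers higher in early HRas-v12 hearts, and 0, 0 and 2 in late ones. All markers of these 5 lists lay above the intensity filter. In bulk tissue, fewer cells of a type and less RNA per cell cannot be told apart, and the part of these shifts in the members' changes was not tested.

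Of 11 genes of the ERK cascade 6 were tested, and 5 were not analysed here. For this list and the next, 33.8% of all genes tested were called in early and 9.52% in late HRas-v12 hearts. In MKK3bE hearts 6.26% were called early and 10.4% late. In early HRas-v12 hearts Map2k1 (0.46, adjusted p = 0.000737), the kinase that activates ERK, and Nras (0.49, adjusted p = 0.00283), a relative of the transgene, were higher and Map2k2, the second such kinase, changed by -0.44 (adjusted p = 0.00208). Ksr1, the scaffold of the cascade, gave -0.32 (adjusted p = 0.101). Map2k2 was the 1 called in late hearts (-0.45, adjusted p = 0.0138). That call was lost without the arrays in doubt, where the 3 early calls remained and Map2k1 was called in early MKK3bE hearts (0.39, adjusted p = 0.0188). Of 13 regulators and partners of Ets factors 11 were tested. In early HRas-v12 hearts Cic, which encodes Capicua, was higher (0.40, SE 0.13, adjusted p = 0.016), and the co-activator Ep300 (-0.32, adjusted p = 0.0113) and Cop1 (-0.25, adjusted p = 0.0131), a ubiquitin ligase that degrades PEA3 proteins, were lower. Atxn1, a partner of Capicua, gave -0.36 (adjusted p = 0.0618). None of the 11 was called in late HRas-v12 hearts, and the co-activator Crebbp was called in late MKK3bE hearts (0.23, adjusted p = 0.041). Leaving out the arrays in doubt kept these 4 calls and added Atxn1 in early HRas-v12 hearts (-0.40, adjusted p = 0.0449) and its paralog Atxn1l in late MKK7D hearts (0.74, adjusted p = 0.0329, against a single control).

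By Pearson correlation of log2 signals over the 36 arrays, the genes most like Etv5 were Npdc1 (0.90), Fam114a1 (0.90) and Hexa (0.88). Those most like Erf were Junb (0.77), Dlgap4 (0.76) and Hdac7 (0.76), and most like Ets2 were 0610009B22Rik (0.78), Irx4 (0.78) and Rab28 (0.77). For Ets1 they were Ulk2 (0.76), Jmjd1c (0.71) and Cwf19l2 (0.70), for Elk4 Pank3 (0.75), Chn1 (0.73) and Zeb1 (0.69), and for Etv6 Prkca (0.65), Wdfy3 (0.64) and 2310022B05Rik (0.64). For Elk1 they were Tnfsf13b (0.67), Katnal1 (0.63) and Clec2d (0.61), for Elk3 Mospd2 (0.65), Dennd4a (0.62) and Tm7sf3 (0.61), and for the brightest Etv4 probe set Pacs2 (0.65), Arhgap32 (0.64) and Jup (0.57). Among the members, the brightest Etv5 probe set was most like Erf (0.63) and ran most against Ets2 (-0.39). The arrays share lines, times and controls, so these are descriptions of the arrays and not tests.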

How the data were processed

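RNA from left ventricles was measured on 36 Affymetrix Mouse Genome 430 2.0 arrays in 13 groups. The deposited values are intensity signals made by the authors with MAS5, per the submitters' processing notes, whose version was not given in the sources used here. Each array has a trimmed mean of 2500 with 2% left out at each end. Signals run from 0.4 to 271532.1 and array medians from 593.5 to 798.6. The number of arrays limits the precision.

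Of 45101 probe sets, 34958 had 1 gene symbol, 932 had several and 9211 had none in the platform annotation, and 34754 symbols were updated through the RefSeq gene table. Signals were taken as log2(signal + 32), so changes of dim genes are understated. The upper 60% of probe sets by mean (log2 mean of at least 8.80) were kept, and each gene was read from its brightest probe set. All groups entered 1 limma fit (limma 3.58.1, R 4.3.3) with a group term and 23 residual degrees of freedom. Comparisons over both sexes averaged the sexes, and early MKK3bE hearts were set against control females. "Called" means a Benjamini-Hochberg adjusted p under 0.05 over all 12626 genes. Adjusted p-values with an n under 10 in the text come from this limma fit or, where an alternative is named, from the limma fit of that alternative.

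The fit was also run on simulated data with the same groups, tested for early HRas-v12 hearts against controls. Of 100 genes changed by 1 on the log2 scale 81 were called, and of 100 changed by 2, 98 were. Among 12626 genes, 9 of the unchanged ones were called. The simulation drew independent noise around 1 mean per gene and changed few genes, in all early HRas-v12 arrays alike. In the real comparison 33.8% of genes were called and 1 early array lay among the controls for Etv5. The simulated figures therefore do not give its sensitivity or error rate.

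The members and gene lists were chosen with earlier results of these data known. Named members are all those tested, and the named list genes are the 4 with the smallest p in early HRas-v12 hearts in each list. Elf2, Crebbp, Atxn1l and the named muscle, smooth muscle and pericyte markers were chosen after their values were seen. Alternatives covered the pseudocount, quantile normalization, the filter, the groups in the fit, the probe set, a replicate block, each array left out and the arrays in doubt left out. Testing every probe set on its own was added after the data were seen. Transgene RNA was not analysed here.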

Additional observations from a re-analysis of the deposited data

Results flagged for a closer look

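Etv5 in early HRas-v12 hearts was marked because the array labelled female early replicate 3, at 1674, lay far from the other 4 of its group. Etv4 in late HRas-v12 hearts was marked because the array labelled male late replicate 3, at 222.1 on the brightest probe set, lay far below the other 5. Elk4 in early HRas-v12 hearts was marked because the array labelled male early replicate 2, at 11653.1, lay far above the other 4. These 3 came from 45 groups examined with Dixon's test, and chance marks about 1 group in 20. The Etv6 change in HRas-v12 hearts differed between the times, and late minus early was 0.38 on the log2 scale (adjusted p = 0.0413, limma).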

How the results depend on the processing

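The 9 members' changes in the 6 comparisons against controls mostly kept direction and side of the threshold: 478 of the values under the alternatives did, 30 reversed, 11 became called and 9 lost their call. The number of members called moved as follows. The share of all genes called can move with the setting too and is mostly not given here, so these counts are not results about the members. In early HRas-v12 hearts (1) it was 2 with the second brightest probe set and 3 without the arrays in doubt. In late HRas-v12 hearts (3) it was 0 with only the groups compared, and 1 with the second brightest probe set and with the replicate block. Without the arrays in doubt the 3 late calls were lost, in a fit with 1 late male array, labelled replicate 4. That array had Etv5 at 1686, within the range of the controls, and the male labelled replicate 3, left out there, had 8219. In early MKK3bE hearts (0) it was 1 with quantile normalization, with the upper 40% of probe sets (7 members tested) and without the arrays in doubt (where 16.4% of all genes were called, in place of 6.26%). In late MKK3bE hearts (0) it was 1 with the upper 40%, only the groups compared, the second brightest probe set, the replicate block and without the arrays in doubt (where 20.4% of all genes were called, in place of 10.4%). Between late and early HRas-v12 hearts (1) it was 0 with quantile normalization, no filter, only the groups compared, the second brightest probe set, the replicate block and every probe set on its own. Between late and early MKK7D hearts (0) it was 1 with only the groups compared, and for the sex difference in late HRas-v12 hearts (0) it was 1 without the arrays in doubt, which leaves 1 male array.

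With each array left out in turn, the count ran from 0 to 3 in early and from 0 to 3 in late HRas-v12 hearts, and from 0 to 1 in early MKK3bE, late MKK3bE, late against early HRas-v12, late HRas-v12 against MKK3bE and the sex difference in early HRas-v12 hearts. The late HRas-v12 count was 0 without control male replicate 1, without female late replicate 3 and without male late replicate 3. The share of all genes called with each array left out is not given. Same-numbered arrays had correlated deviations of over 0.1 in 4 of 23 pairs (range -0.343 to 0.125). With 2 or 3 arrays in a group, these values cannot tell whether the numbers pair the arrays.

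With the second brightest probe set the direction turned for Elk1 (-0.38) and Erf (-0.68) in early HRas-v12, Elk1 (-0.45) in late HRas-v12, Ets2 (0.27) and Elk1 (-0.0221) in early MKK3bE, and Etv4 (0.44), Ets1 (0.0275), Ets2 (0.16), Elk1 (-0.0428), Elk4 (0.12) and Erf (-0.16) in late MKK3bE hearts. It also turned for Etv4 (0.32), Ets2 (0.0422) and Elk3 (0.14) in early and Etv4 (0.60), Elk1 (-0.58), Elk4 (0.0873) and Erf (-0.0173) in late MKK7D hearts. Without the arrays in doubt it turned for Ets2 (0.0198), Elk3 (-0.0288) and Erf (-0.0163) in late HRas-v12 and Etv4 (0.63), Ets1 (0.0633), Elk3 (0.33), Elk4 (0.050) and Erf (-0.0866) in late MKK7D hearts. With the replicate block it turned for Elk4 (0.0152) in early and Elk1 (-0.0619) and Elk3 (-0.00668) in late MKK3bE hearts, and with quantile normalization for Elk3 (-0.0118) there. The cause was not tested.

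With each array left out, the ranges that crossed 0 were -0.0237 to 0.14 for Etv6 and -0.0201 to 0.25 for Elk1 in early HRas-v12, and -0.14 to 0.0076 for Ets2 in late HRas-v12 hearts. In early MKK3bE hearts they were -0.38 to 0.28 for Ets1, -0.26 to 0.26 for Ets2, -0.17 to 0.58 for Elk3 and -0.15 to 0.0377 for Elk4. In late MKK3bE hearts they were -0.28 to 0.0725 for Ets1, -0.0928 to 0.0288 for Ets2, -0.10 to 0.22 for Elk1 and -0.0824 to 0.0939 for Elk3. In early MKK7D hearts they were -0.11 to 0.11 for Etv5, -0.0606 to 0.28 for Ets1 and -0.15 to 0.18 for Elk4. In late MKK7D hearts they were -0.36 to 0.26 for Etv4, -0.13 to 0.53 for Etv5, -0.0432 to 0.17 for Elk1, -0.18 to 0.0989 for Elk3 and -0.085 to 0.13 for Erf.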
